A study of Mus musculus with 2 samples.

Results

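The genes described here are the 22 nuclear receptor genes whose symbols follow the systematic Nr pattern (Nr, a digit from 0 to 6, a letter from a to i, and a digit), leaving out Nr1d1, Nr1d2 and Nr3c1. They were chosen by symbol alone, and they stand among 49 nuclear receptor genes listed for this work and 55450 annotated genes with a row in the gene tables. Levels come from total RNA-seq of gastrocnemius, a calf muscle, in 2 male B6CASTF1/J mice aged 25 days, which are F1 hybrids of C57BL/6J and CAST/EiJ. Both animals were labelled alike and no treatment or other genotype was named, so there was 1 group with 1 library per animal, each made from 300 ng of RNA. The labels number the tissues as separate biological replicates while giving both the same donor entry. Levels are the authors' TPM, a share of all transcripts corrected for their length, and a gene is called detected at 1 TPM or more in both libraries.

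Most nuclear receptors are transcription factors with a zinc-finger DNA-binding domain and a ligand-binding domain. Some respond to hormones, oxysterols or bile acids, while others, the orphan receptors, have no established physiological ligand. Many bind DNA as heterodimers with the retinoid X receptors and exchange corepressors such as Ncor1 for coactivators such as Ncoa1. In skeletal muscle, members of the Nr4a subfamily are known as immediate early genes that respond to beta-adrenergic signalling and contraction and act on genes of glucose and lipid use.

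The libraries held 35098487 and 37428588 expected counts, and a gene without counts could still have had up to 3, which is 0.0855 CPM (counts scaled to the library total) in animal 1 and 0.0802 CPM in animal 2, for counting error only. Rn7s, a short noncoding RNA, took 26.6% and 29.8% of all TPM, which lowers the TPM of every other gene alike within a library. The tissue label was checked with 6 fibre markers, which summed to 90774 TPM in animal 1 and 90831 TPM in animal 2, led by Acta1 and Mylpf. Summed over 6 genes each, markers of fibroblasts stood at 1536 and 938 TPM, those of tendon at 153 and 115 TPM, those of mural cells at 111 and 131 TPM, and those of Schwann cells at 54.1 and 109 TPM. The corresponding sums were 56.6 and 64.6 TPM for endothelial cells, 21.9 and 21.8 TPM for macrophages, 19.4 and 21.3 TPM for satellite cells, 13.2 and 7.28 TPM for adipocytes, and 398 and 376 TPM for lymphocytes and blood, nearly all of it the globins Hbb-bs and Hba-a1. All 6 markers each of fibroblasts, tendon, mural cells and endothelial cells were detected. Detected too were 4 macrophage, 3 satellite cell, 3 Schwann cell and 1 adipocyte markers, so the libraries held RNA of several cell types. No gene of these lists was at 0 in both animals. The lymphocyte genes Cd3e and Cd79a, however, had 0 counts in animal 1 and 1 and 1.22 in animal 2, too few to show lymphocyte RNA. In such bulk samples fewer cells of a type and less RNA per cell cannot be told apart.

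The sequences around the starts of transcription are given first for the Nr4a subfamily, because its 3 genes share a feature there. Taken from RefSeq windows of 300 bases (250 before and 50 from the start, build GRCm38.p6), they are printed on the gene's strand without the bases that lie in annotated exons. Capitals mark TGACG or its reverse complement CGTCA, the core of the cAMP response element bound by CREB-family factors. The stretches are chr15:101266596-101266845 (plus strand) for Nr4a1, chr2:57124004-57124253 (minus strand) for Nr4a2 and chr4:48045055-48045152 (plus strand) for Nr4a3.
Nr4a1: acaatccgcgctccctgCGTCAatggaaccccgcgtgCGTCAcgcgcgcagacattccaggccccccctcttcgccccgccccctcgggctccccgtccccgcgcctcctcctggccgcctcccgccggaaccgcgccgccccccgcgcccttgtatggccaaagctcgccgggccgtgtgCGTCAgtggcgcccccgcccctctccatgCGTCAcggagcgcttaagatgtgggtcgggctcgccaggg
Nr4a2: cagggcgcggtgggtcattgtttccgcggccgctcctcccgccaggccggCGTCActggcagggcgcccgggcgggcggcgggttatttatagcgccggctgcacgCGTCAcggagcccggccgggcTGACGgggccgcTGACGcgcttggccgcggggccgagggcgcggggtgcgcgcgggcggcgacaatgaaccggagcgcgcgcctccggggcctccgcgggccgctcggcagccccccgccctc
Nr4a3: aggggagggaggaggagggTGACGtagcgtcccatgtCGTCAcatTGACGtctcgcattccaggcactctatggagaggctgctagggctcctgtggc

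The whole windows of Nr4a1, Nr4a2 and Nr4a3 held 4 matches each to TGACG on either strand, and the printed stretches hold 4, 4 and 3 of them. Among all 32851 RefSeq windows, 20.8% held at least 1 such match and 0.231% held 4 or more. TGACG itself contains a CG, and the windows of Nr4a1, Nr4a2 and Nr4a3 held 35, 52 and 26 CG. The median of all windows was 7 CG. The share with 4 or more matches among windows of like CG content was not computed and may be higher. No other gene of the set reached 4, the next being Nr2e1 with 3. The full palindrome TGACGTCA, which contains the shorter motif on both strands, was found in 1.79% of all windows and in none of the Nr4a windows, whereas the Nr2e1 window and 1 of 2 Nr6a1 windows held 1 match each. A match of letters is not evidence of binding, and no binding was measured here.

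Nr4a1, also known as Nur77 (chromosome 15, 101254269 to 101274795, plus strand, mm10), was the most abundant gene of the set, with 26.94 TPM in animal 1 and 20.42 TPM in animal 2 (23.7 ± 4.61, SD, n = 2). It ranked 5 among the 49 receptors, below Nr1d1 (39.9 ± 9.48), the thyroid hormone receptor Thra (32.1 ± 3.83), Rxra (30.4 ± 1.98) and Esrra (29.5 ± 6.31). Nr4a1 alone made up 34.4% of the summed TPM of the 22 genes in animal 1 and 29.1% in animal 2. Nr4a3, or Nor1 (chromosome 4, 48045153 to 48086447, plus strand), stood at 6.21 and 4.30 TPM. Nr4a2, or Nurr1, best known from dopaminergic neurons, stayed below the detection threshold at 0.36 and 0.44 TPM, on 36 and 44 counts. Within the subfamily the ranges over the animals did not overlap, in the order Nr4a1, Nr4a3, Nr4a2.

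**Figure D1:**
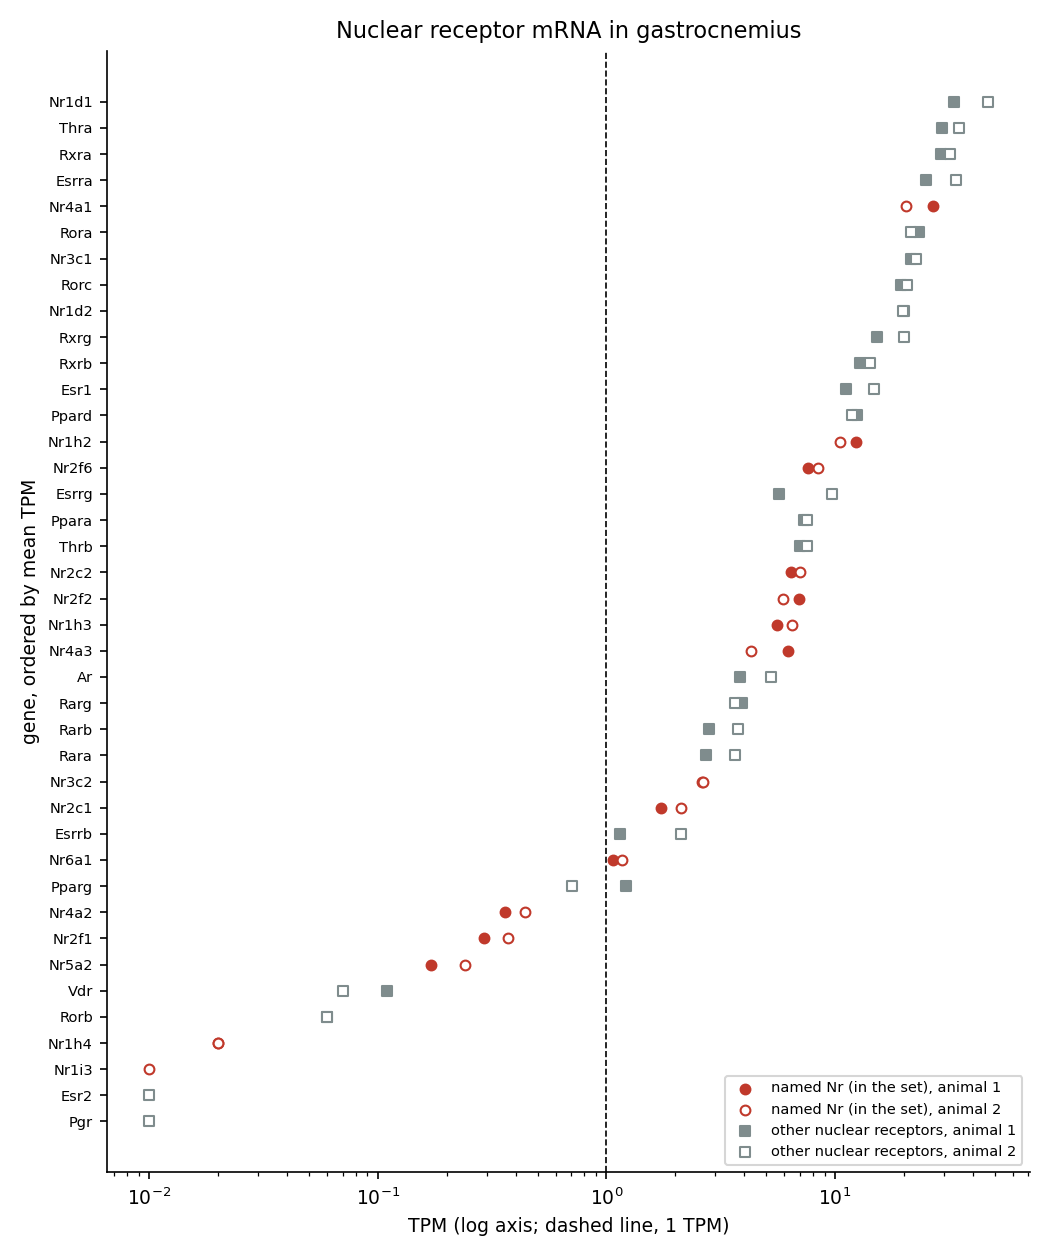
TPM (log axis) of the nuclear receptor genes in each animal, ordered by mean, with the genes named Nr in red circles and the other receptors in grey squares (filled, animal 1; open, animal 2). Nr4a1 lies among the most abundant receptors, 10 genes of the set lie right of the dashed 1 TPM line in both animals, and genes or points at 0 TPM are not drawn.

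Of the 22 genes, 10 were detected in both libraries, or 45.5%, beside 19.5% of all annotated genes, 45.3% of nuclear protein-coding genes and 20 of the other 27 receptors. The share was thus that of protein-coding genes at large. The detected genes were Nr4a1, Nr1h2, Nr2f6, Nr2c2, Nr2f2, Nr1h3, Nr4a3, Nr3c2, Nr2c1 and Nr6a1, with a median of 6.25 TPM. Their sum with the undetected members was 78.39 TPM in animal 1 and 70.18 TPM in animal 2, against 288.65 and 336.39 TPM for the other 27 receptors. The lowest detected gene was Nr6a1 with 1.07 and 1.17 TPM, and the highest below the threshold was Nr4a2.

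The order of levels was only partly set beyond the spread between the animals. In the first quantification Nr4a1, Nr1h2 and Nr2f6 each had a range above that of the next gene. The ranges of Nr2c2, Nr2f2, Nr1h3 and Nr4a3 overlapped from neighbour to neighbour, between 4.30 and 7.02 TPM, so their order is not resolved. Below them Nr3c2, Nr2c1 and Nr6a1 were again separate from each other in both animals. The second deposited quantification kept Nr4a1 and Nr1h2 in the first places but not the rest of this order. There Nr2f2 (12.6 and 13.9 TPM) lay wholly above Nr2f6 (8.38 and 10.3 TPM), Nr2c2 (8.71 and 10.03 TPM) fell within the range of Nr2f6, and Nr3c2 (3.06 and 3.50 TPM) overlapped Nr2c1 (2.78 and 3.57 TPM).

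The liver X receptors Nr1h2 (LXR beta) and Nr1h3 (LXR alpha), which sense oxysterols and act with retinoid X receptors on cholesterol and lipid genes, were both detected. Nr1h2, expressed in most tissues (chromosome 7, 44549616 to 44553951, minus strand), stood at 12.36 and 10.55 TPM, and Nr1h3, known from liver, fat and macrophages (chromosome 2, 91184061 to 91202834, minus strand), at 5.59 and 6.51 TPM. Nr1h2 was the higher of them in both animals. Their dimer partners were detected too, Rxra at 28.97 and 31.77 TPM, Rxrg at 15.24 and 19.95 TPM and Rxrb at 12.88 and 14.18 TPM. Of 11 listed LXR target genes 10 were detected, led by the lipoprotein lipase Lpl (119.75 and 131.88 TPM), Apoe, the phosphodiesterase Smpdl3a and the lipogenic regulator Srebf1 (6.45 and 7.83 TPM). The exception was the sterol exporter Abcg1 at 0.47 and 0.72 TPM.

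The COUP-TF group comprises Nr2f1, Nr2f2 and Nr2f6, orphan receptors that mostly act as repressors, with Nr2f2 known from veins and stromal cells. Nr2f6 stood at 7.65 and 8.46 TPM and Nr2f2 at 6.97 and 5.92 TPM, while Nr2f1 was below the threshold at 0.29 and 0.37 TPM, on 13 and 29 counts. The testicular receptors Nr2c1 (TR2) and Nr2c2 (TR4), orphan receptors that bind direct repeats, were both detected. Nr2c2 had 6.41 and 7.02 TPM and Nr2c1 1.73 and 2.11 TPM, so Nr2c2 was higher in both animals. Nr2c2ap, which encodes a protein that binds TR4, was lower than either at 1.60 ± 0.13 TPM (SD, n = 2).

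Exons on the opposite strand limit some of these levels, because the use of strand in counting is not given in the sources used here. Of the Nr2f6 exon bases 54.4% are shared with Ocel1, and of those of Nr2c2 30.7% with Mrps25. Ocel1 had 130 and 140 counts beside 372 and 486 for Nr2f6, and Mrps25 had 391 and 377 beside 1048 and 1267 for Nr2c2. Of these expected counts only those of Nr2c2 (1047.82 and 1267.25 before rounding) were not whole numbers. Reads that lie wholly in the shared bases of such a pair cannot be told apart without strand. A further pair bears on this directly: 74.9% of the Nr1i3 exon bases are shared with Tomm40l on the other strand, and Tomm40l had 818 and 1026 counts while Nr1i3 had 0 and 1.

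Nr3c2 (chromosome 8, 76899442 to 77245012, plus strand) encodes the mineralocorticoid receptor, which binds aldosterone and also glucocorticoids. It was steady at 2.62 and 2.64 TPM, against 21.58 and 22.57 TPM for the glucocorticoid receptor Nr3c1. Hsd11b2, the enzyme that inactivates glucocorticoids in aldosterone target tissues, was below the threshold at 0.34 and 0.24 TPM, whereas Hsd11b1, which regenerates them, stood at 2.58 and 3.09 TPM. The epithelial sodium channel subunits Scnn1a and Scnn1b reached no more than 0.10 TPM and Scnn1g had 0 counts. Of the 10 genes of this axis 6 were detected, the highest being Tsc22d3 (103.63 and 64.57 TPM), Sgk1 (56.66 and 76.16), Zbtb16 (58.17 and 52.52) and Fkbp5 (38.54 and 23.85), all of which are also known targets of the glucocorticoid receptor.

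Nr6a1, the germ cell nuclear factor, was the lowest detected gene, on 83 and 92 counts. Nr5a2, the liver receptor homolog of liver, pancreas and ovary, had 9 and 25 counts and 0.17 and 0.24 TPM. The bile acid receptor Nr1h4 (FXR) had 1 count in each library, and Nr1i3 (CAR), a sensor of foreign compounds, 0 and 1. No count was assigned in either library to 7 genes: Nr0b1 (DAX1) and Nr5a1 (SF1) of the adrenal and gonads, Nr0b2 (SHP) of the liver, Nr1i2 (PXR), the xenobiotic sensor of liver and gut, Nr2e1 (TLX) of neural stem cells, Nr2e3 of photoreceptors, and Nr1h5 (FXR beta). Nr6a1 and Nr5a1 are neighbouring protein-coding genes on the minus strand of chromosome 2, at 38723370 to 38927688 and 38692656 to 38714542, and of this pair only Nr6a1 had counts. The levels of these 7 genes were under the limit that the depth allows, and they do not show that the genes were silent in every cell.

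The genes that these receptors are known to act on were low as well. None of 10 bile acid and xenobiotic target genes was detected, and 9 of them, Cyp7a1 and Cyp3a11 included, had 0 TPM in both animals, with Cyp2b10 at 0.09 and 0 TPM. None of 9 listed genes of the adrenal and gonads, most of them steroidogenic, was detected. Of these 5 were at 0, the others being led by Amh, a hormone gene, and Star at no more than 0.15 TPM.

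The base composition around the starts differed along this order. Of the 22 genes 21 had a RefSeq window, Nr5a1 having none, and the windows of a gene were averaged. The 10 detected genes had a median of 19.5 CG dinucleotides per 300 bases (2 to 53), and 9 of them lay above 7, the median of all windows. The 5 genes with counts below the threshold had a median of 7 (3 to 52), and the 6 without counts a median of 4 (2 to 19), with 2 above 7. Nr4a2 with 52, Nr2e1 with 19, Nr0b1 with 14 and Nr2f1 with 13.5 lay above 7 without being detected. Nr2f2 was the exception in the other direction with 2, but its window is placed on a start at position 70366746 of chromosome 7, by the transcript Nr2f2-202, whereas Nr2f2-201, which led in the first quantification, begins at 70360593. The Nr2c2 window, with 20, is likewise placed on the start of Nr2c2-202 at 92092433 of chromosome 6, while the leading Nr2c2-201 begins at 92091390. These are descriptions with no test, and CG-rich starts are known from widely expressed genes of many kinds.

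The contrast is shown by a detected and an undetected gene of the same subfamily, Nr1h2 at chr7:44553966-44554215 and Nr1i2 at chr16:38294825-38295074, both on the minus strand and printed as above, with CG in capitals. The Nr1h2 stretch holds 13 CG and the Nr1i2 stretch 2. Over whole windows Nr1i2, with 2, was the lowest of the undetected genes. Other pairs of this subfamily differed less: the detected Nr1h3 had 9, beside 7 for Nr1h4 and 3 each for Nr1h5 and Nr1i3, all undetected.
Nr1h2: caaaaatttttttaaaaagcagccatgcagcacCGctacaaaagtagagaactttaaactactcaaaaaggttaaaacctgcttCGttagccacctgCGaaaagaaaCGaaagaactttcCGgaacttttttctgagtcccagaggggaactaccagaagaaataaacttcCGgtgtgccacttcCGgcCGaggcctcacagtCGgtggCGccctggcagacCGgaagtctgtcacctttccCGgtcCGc
Nr1i2: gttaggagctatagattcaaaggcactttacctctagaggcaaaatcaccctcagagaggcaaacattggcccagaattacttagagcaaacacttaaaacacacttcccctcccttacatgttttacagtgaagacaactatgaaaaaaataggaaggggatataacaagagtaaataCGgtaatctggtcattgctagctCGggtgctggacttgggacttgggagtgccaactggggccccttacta

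**Figure D2:**
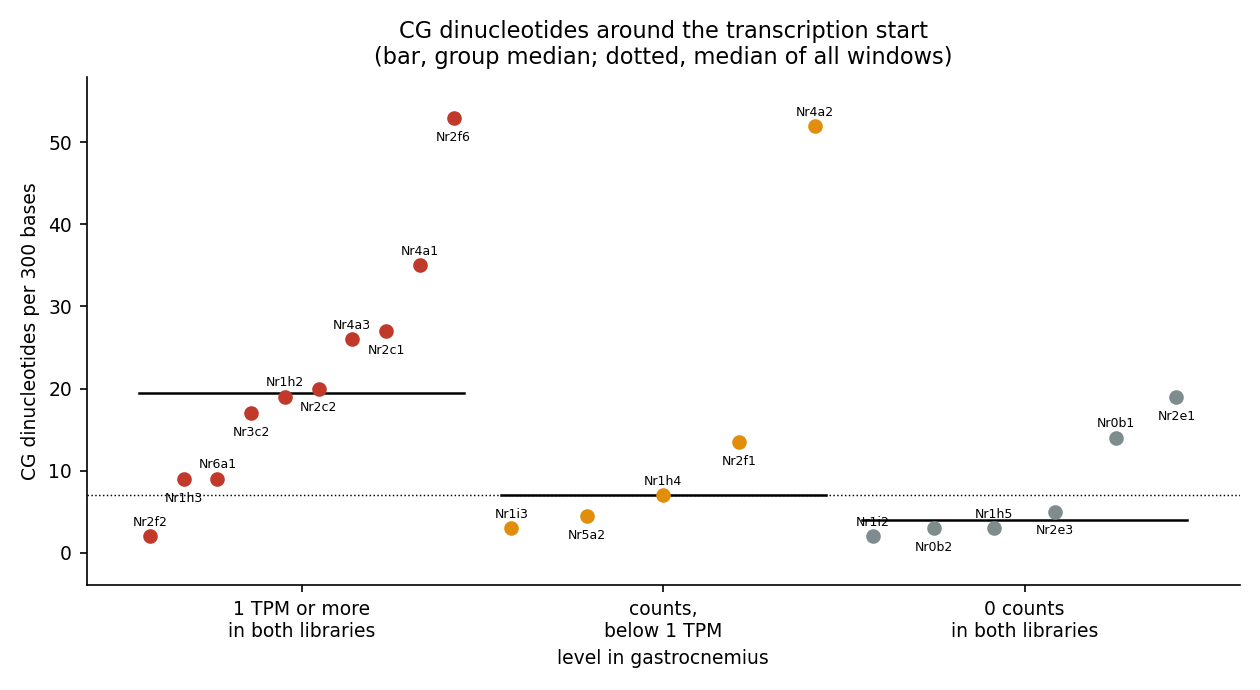
CG dinucleotides per 300 bases around the RefSeq start (vertical axis) for the 21 genes with a window, grouped by their level in gastrocnemius. Bars are group medians of 19.5, 7 and 4, and the dotted line at 7 is the median of all 32851 windows.

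The only contrast that the labels allow is between the animals. Expected counts were scaled by TMM and compared by a two-sided exact conditional binomial test over the 14749 genes that summed to at least 20 counts, with Benjamini-Hochberg adjustment. It compares 2 libraries and carries sampling error alone, so a passed test says nothing of a condition. Calls needed both an adjusted p under 0.05 and a difference over 2-fold, which 1.78% of all tested genes met. Of the 22 genes 13 had enough counts to be tested and 0 were called. By adjusted p alone, which 15.1% of all tested genes passed (8.1% higher and 7.0% lower in animal 2), 1 of the 13 passed. With library totals in place of TMM 3 of the 13 passed, beside 3541 of all 14749 tested genes. The share of passed genes over the whole table that were higher in animal 2 moved from 53.6% to 82.9%.

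The gene that passed was Nr4a1, lower in animal 2 by both counts (1796 against 1398) and TPM. Its log2 ratio of animal 2 over animal 1 was -0.55 (95% counting interval -0.65 to -0.45, adjusted p = 1.09e-24 by the exact binomial test), and the ratio of TPM was -0.40 on the log2 scale. Nr4a3 had nearly equal counts, 730 and 738, and a log2 ratio of -0.17 (-0.32 to -0.02, adjusted p = 0.121, exact binomial test), which did not pass. Nr2f6 had 0.20 (0.0025 to 0.40, adjusted p = 0.19, exact binomial test). With library totals Nr2f6 and Nr2c2 also passed, at log2 ratios of 0.29 and 0.18 and adjusted p of 0.0174 and 0.0142 in the exact binomial test.

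Over the 13 tested genes the median log2 ratio was 0.08, beside 0.01 over all tested genes, and the median of its absolute value was 0.14, beside 0.15. The figures over all tested genes were not matched for counts, and few counts widen such ratios. Over 8316 genes in a middle band of counts, which leaves out some of the 13, the median absolute value was 0.11. Nr1h2 (-0.14), Nr2f2 (-0.09) and Nr6a1 (-0.04) were on the lower side and Nr2c1 (0.17), Nr4a2 (0.10), Nr2c2 (0.09), Nr1h3 (0.08) and Nr3c2 (0.04) on the higher side, none past the test. For Nr6a1 the ratio of TPM had the other sign, at 0.13. Nr5a2 and Nr2f1 had the widest intervals, with log2 ratios of 1.24 (0.14 to 2.57) and 0.94 (-0.02 to 2.04) on fewer than 30 counts per library, and neither passed (adjusted p = 0.119 and 0.182, exact binomial test).

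**Figure D3:**
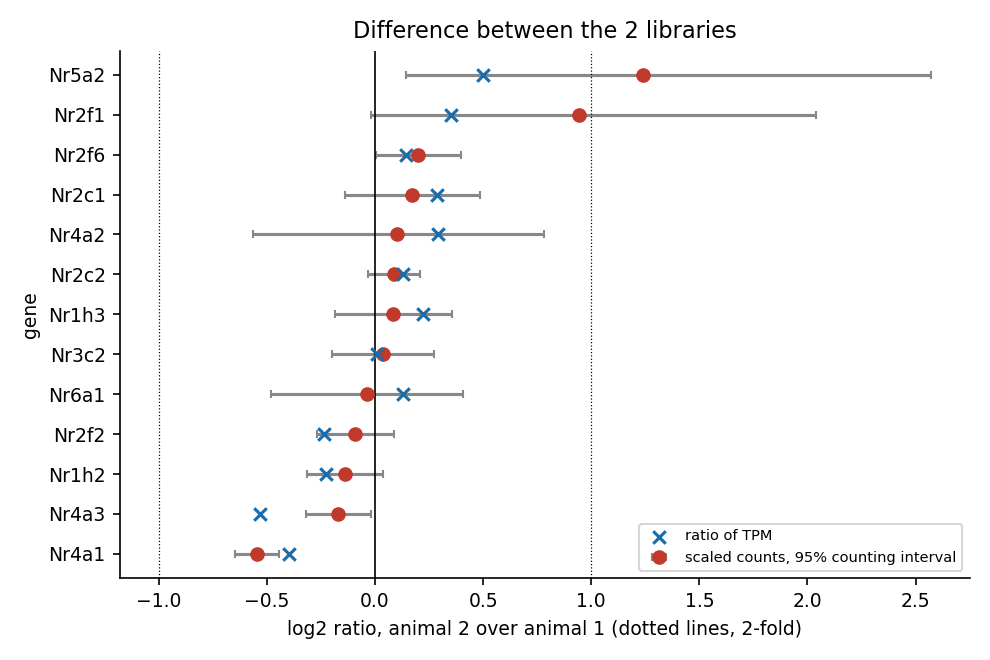
Log2 ratio of animal 2 over animal 1 for the 13 tested genes, from TMM-scaled counts (red points with 95% counting intervals) and from TPM (blue crosses), with dotted lines at 2-fold. The interval of Nr4a1 lies wholly below 0, and the largest ratios, of Nr5a2 and Nr2f1, have the widest intervals.

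Other immediate early genes were compared beside the Nr4a subfamily, to which they are related by their inducibility. Of 15 such genes 11 were detected, and 5 passed the adjusted test lower in animal 2 and none higher, beside 7.0% and 8.1% of all tested genes. The most abundant were Jund (23.82 and 26.81 TPM), Jun (23.24 and 21.28), Dusp1 (16.93 and 19.25) and Btg2 (10.87 and 10.54), of which Jun passed. The other 4 that passed, named after their values were seen, were Fos (2.89 and 2.01 TPM), Fosl2 (5.27 and 3.87), Egr1 (2.38 and 1.56) and Atf3 (6.01 and 2.73). None of the 15 was called over 2-fold, and the median log2 ratio of the list was -0.16.

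Among the genes of the mineralocorticoid axis, 7 were tested, with 4 lower and 1 higher in animal 2 by the adjusted test. Over all tested genes 7.0% were lower and 8.1% higher. Per1, also a clock gene, was the only one called, at 18.19 and 8.22 TPM and a log2 ratio of -1.42 (adjusted p = 1.83e-123, exact binomial test). Tsc22d3 had a log2 ratio of -0.80, Fkbp5 of -0.71 and Zbtb16 of -0.25, while Sgk1 stood at 0.25. Nr3c2 itself had a log2 ratio of 0.04 (-0.20 to 0.27).

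Of 16 coregulator genes all were detected, the corepressor Ncor1 (45.55 and 44.75 TPM), Ncoa4 (21.04 and 23.14) and Tbl1xr1 (16.22 and 18.31) being among the most abundant. By the adjusted test 3 were lower in animal 2, Nrip1 and Crebbp among them, and 1 was higher, Ncoa6, with none called. The largest of these differences was that of Nrip1, a corepressor of metabolic genes, at 12.69 and 7.52 TPM. Of the 11 LXR targets 2 were higher, Srebf1 and Scd2, and 2 lower, Apoe (29.20 and 20.90 TPM) and Scd1, again with none called. For Scd1 the sign depended on the measure, since its log2 ratio of scaled counts was -0.31 while its TPM was 5.37 in animal 1 and 6.34 in animal 2. Of the 27 other receptors 23 were tested, 9 being higher and 1 lower in animal 2, and none called. Beside each of these 3 lists, 8.1% of all tested genes were higher and 7.0% lower by the adjusted test. Nrip1, Crebbp, Ncoa6, Scd1 and Scd2 were named after their values were seen.

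Marker genes of other cell types also differed between the libraries. By the adjusted test 4 of 6 fibroblast and 4 of 6 tendon markers were lower in animal 2. So were 2 of the 5 tested adipocyte markers (Adipoq over 2-fold), while 4 of 6 Schwann cell markers (1 over 2-fold) and 4 of 6 mural cell markers were higher. Over all tested genes 7.0% were lower and 8.1% higher. The fibroblast markers Pdgfra and Lum did not pass. All 6 fibre markers passed, 5 lower and 1 higher. Their log2 ratios were as small as -0.02 for Ckm and 0.01 for Acta1, so at high counts small differences passed too. The part of these cell types in the lower Nr4a1 level, or in the lower immediate early genes, was not tested.

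The second deposited quantification, a transcript table in the layout of kallisto that was summed to genes here, gave the same 10 detected genes. Its TPM were generally higher: the median ratio of second to first was 1.43 over detected protein-coding genes, and 38.2% of these exceeded 1.5. For the 10 detected genes of the set the ratio ran from 1.07 for Nr1h3 to 2.06 for Nr2f2, and 3 exceeded 1.5, the others being Nr2c1 (1.65) and Nr1h2 (1.62). Nr2f2 thus moved from 6.97 and 5.92 TPM to 12.6 and 13.9 TPM, on similar counts of 555 and 621 beside 500 and 534. Nr4a1 was lower in animal 2 there too, with 34.9 and 26.0 TPM and a log2 ratio of scaled counts of -0.59.

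**Figure D4:**
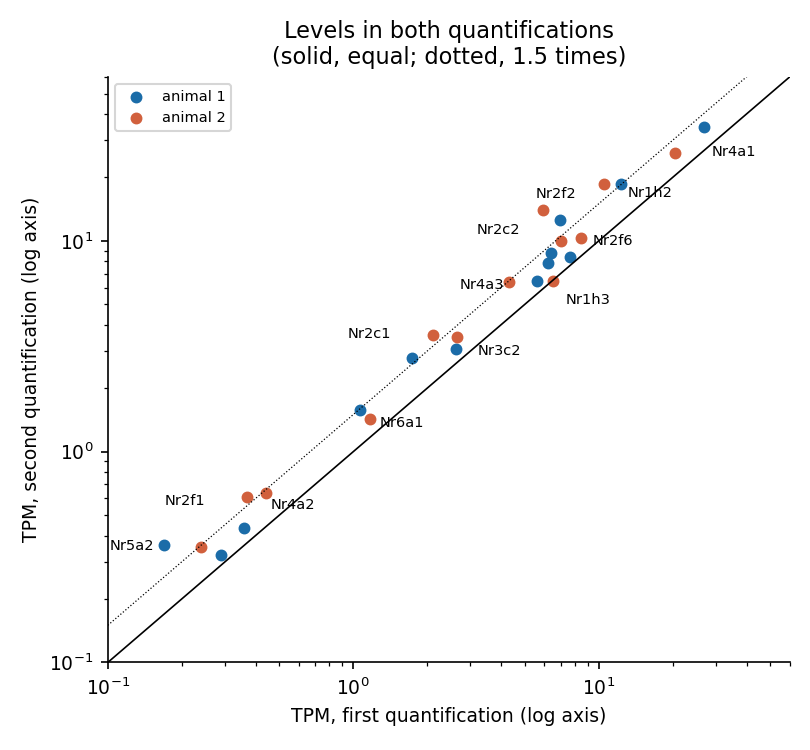
TPM of the 13 tested genes in the first (horizontal) and second (vertical) quantification, both axes log, with a point per animal. Points lie near or above the solid line of equality, and the mean over the animals is above 1.5 times (dotted line) for Nr2f2, Nr5a2, Nr2c1 and Nr1h2.

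At the level of transcripts the quantifications were far apart for Nr4a1. The first gave the transcript Nr4a1-201 95.3% and 88.3% of the gene's TPM and Nr4a1-202 1.00% and 4.69%. The second gave Nr4a1-202 96.8% and 93.8%, with Nr4a1-201 at 0.22 TPM or less. These transcripts share 6 identical exons (2351 bases) and differ only at their 5′ ends, where Nr4a1-201 has 126 bases of its own in 1 exon and Nr4a1-202 has 202 bases in 2 exons. Nr4a1-202 begins at position 101254269 of chromosome 15 and Nr4a1-201 at 101266846, 12577 bases further on. The Nr4a1 window printed above belongs to the start of Nr4a1-201. Which start was used in this muscle is therefore not settled by these tables. The gene's counts were 1796 and 1398 in the first and 1863 and 1393 in the second, while its mean level was 23.7 TPM in the first and 30.5 TPM in the second.

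For Nr4a3 the transcripts bear on the comparison between the animals. In the first quantification the coding transcript Nr4a3-201 (5720 bases) took 66.4% in animal 1 and 99.9% in animal 2. The short noncoding Nr4a3-202 (1290 bases) and Nr4a3-204 (895 bases) took 18.8% and 14.8% in animal 1 and 0% in animal 2, although they held only 5.5% and 2.89% of the gene's counts there. The effective length of the gene was accordingly 4074 bases in animal 1 and 5620 bases in animal 2, and equal counts became 6.21 and 4.30 TPM. Nr4a3-201 alone stood at 4.12 and 4.29 TPM in the first quantification and at 5.32 and 4.99 TPM in the second. The log2 ratio of the gene's TPM was -0.53 beside -0.17 for its scaled counts, and the latter is the one tested above.

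**Figure D5:**
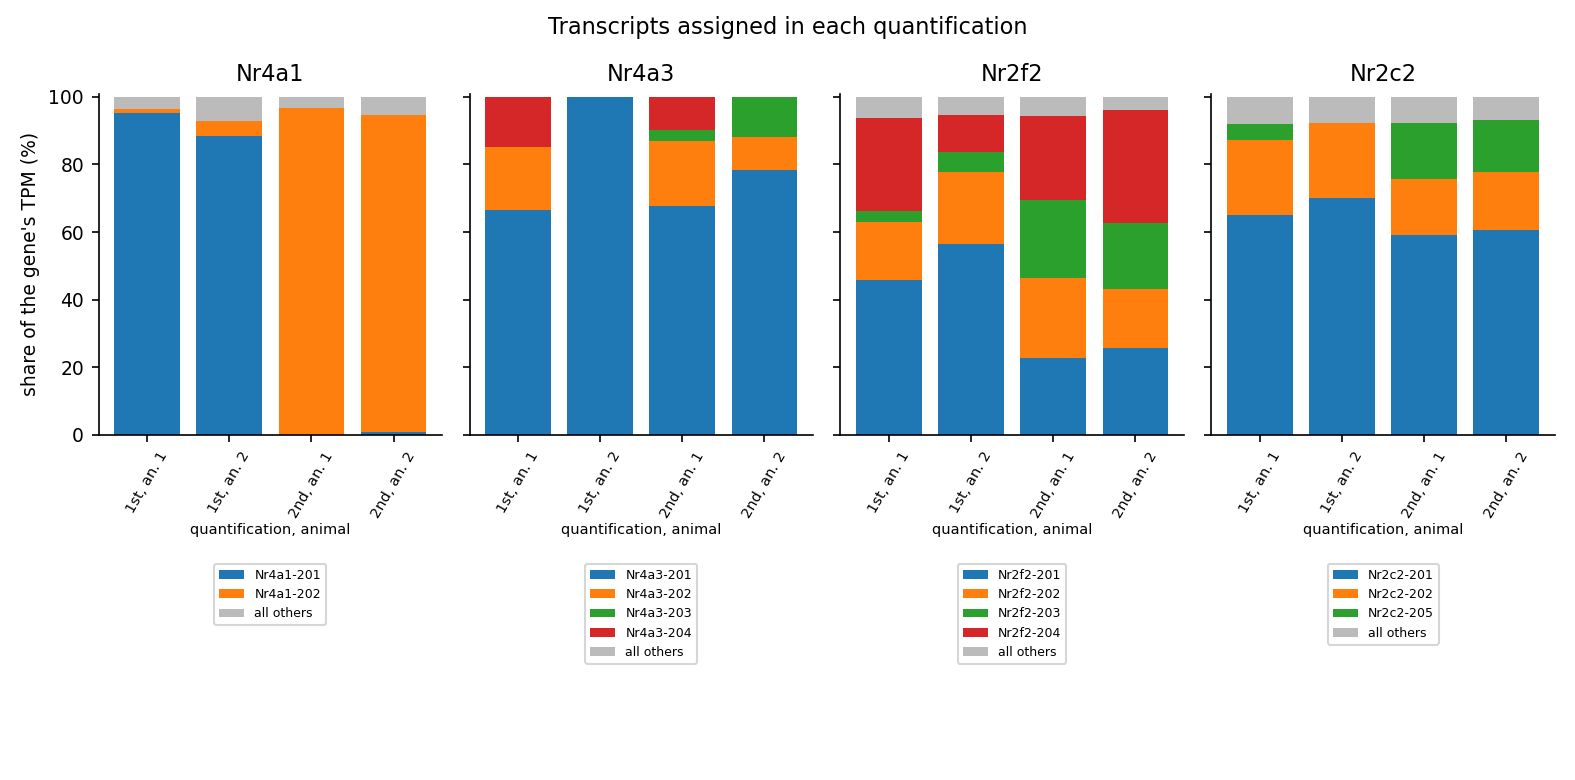
Share of the gene's TPM (%) given to each transcript in the first and second quantification (1st, 2nd) of each animal (an. 1, an. 2) for Nr4a1, Nr4a3, Nr2f2 and Nr2c2, with transcripts that never reach 10% summed in grey. The leading transcript of Nr4a1 changes from Nr4a1-201 to Nr4a1-202 between the quantifications, whereas that of Nr2c2 does not.

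Among the 10 detected genes 4 had the same leading transcript in both animals and both quantifications, namely Nr2c2-201, Nr2f6-201, Nr4a3-201 and Nr6a1-210. In the first quantification 8 of 10 had the same one in both animals, the exceptions being Nr1h3 and Nr3c2, and in the second all 10. Nr2f2 was led by Nr2f2-201 in the first (45.9% and 56.3%) and by the short Nr2f2-204 of 636 bases in the second (24.7% and 33.3%). Nr1h2, with 18 annotated transcripts, was led by Nr1h2-201 at 27.6% and 43.6% in the first and by Nr1h2-207 of 534 bases at 34.2% and 28.2% in the second. Nr6a1-210 took 39.49% and 38.04% of the gene's TPM in the first and 84.6% and 85.7% of its counts.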

How the data were processed

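Total RNA-seq of 2 libraries, 1 per animal, was used as deposited. Expected counts, TPM and each transcript's percent of its gene were computed by the authors, in the columns RSEM writes, per the file headers. The second transcript table holds the authors' estimated counts and TPM in kallisto's columns, per the file headers. Build mm10 and annotation M21 are those of the deposited descriptions. The tools' versions and whether strand was used: not given in the sources used here. The authors' posterior mean TPM served as an alternative. The bounds on TPM were read and not reported.

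Counts were rounded and scaled by TMM (edgeR 4.0.16, R 4.3.3). Without replicates of a condition no dispersion can be estimated, so an exact conditional binomial test with Benjamini-Hochberg adjustment was used, with a prior count of 0.5 for ratios. Tested on simulated data (14755 genes), it called all 100 genes set to a 3-fold change, all 100 set to 4-fold and 1 of 14555 left alone. Because the test carries sampling error alone, this gives no rate of false calls between real animals, where 1.78% of tested genes were called. A change was simulated only in genes whose counts in both libraries together reached at least 100. Genes with fewer counts, such as Nr5a2 and Nr2f1, were thus left out of the changed genes. The simulated calls therefore do not show that such changes would be called in them. Intervals cover counting error only.

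The rule for the 22 genes used symbols alone, but members and the 7 pathway and 10 marker lists were chosen with earlier results of these data known. All members were named, with up to 4 genes per pathway list and 2 per marker list by mean TPM, and list genes called. A few of these are not reported here.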

Additional observations from a re-analysis of the deposited data

How the results depend on the processing

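Leaving out either animal, lowering the threshold to 0.5 TPM, posterior mean TPM, TPM over nuclear protein-coding genes and the second quantification each gave 10 detected genes, the same ones, so the range without replicate 1 or 2 was 10 to 10. A threshold of 2 TPM gave 8, losing Nr2c1 and Nr6a1. The count of genes called between the libraries was 0 under library totals, DESeq2 size factors, a summed count of 1 or of 100 and the second quantification, and 1, Nr4a1, by adjusted p alone. The log2 ratio of Nr4a1 ran from -0.59 to -0.40 over its alternatives. Of 13 levels, 12 moved by more than the SD in the second quantification, 13 over nuclear protein-coding genes and 7 as posterior mean TPM. Of 10 leading transcript shares 7 moved in the second quantification. The causes were not tested. Leaving out an animal leaves no contrast and was not run for it. No paired analysis was possible because there is 1 group. Genes under about 30 counts, such as Nr5a2 and Nr2f1, are limited by depth.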
